A study of Rattus norvegicus with 16 samples.

Results

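The serotonin receptor genes examined were Htr1a, Htr1b, Htr1d, Htr2a, Htr2c, Htr3a, Htr4, Htr5a, Htr6 and Htr7, described across brain region, diet and duration of feeding. The list was made by name, but with earlier results of these data known. The study had already reported lower Htr2a in cortex and lower Htr2c in hippocampus after the longer curcumin feeding. A transcript cluster (the set of probes that reads 1 transcript) was taken where its annotated symbol was exactly that of the gene. Each of the 10 genes had exactly 1 such cluster among the 27342 clusters of the arrays, and all 10 averaged above 5.3 on the log2 scale, the limit of the dimmest 25% of clusters. The samples were 16 arrays in 8 groups of 2, from male Sprague-Dawley rats labelled 15 months old. By the methods that was their age at the start, before acclimatization and feeding, so they were older when the tissue was taken. In each region and at each duration, rats that had eaten chow mixed with curcumin, a polyphenol of turmeric, were set against rats on control chow. The groups were thus hippocampus with curcumin and with control chow for 6 weeks, hippocampus with curcumin and with control chow for 12 weeks, and the same 4 groups of cortex. A group held 6 rats, each of which gave both regions, and the tissue of 3 rats at a time was combined before RNA extraction, so an array reports a pool and not an animal. By the labels such a pair is biological, whereas the study's design text mentions arrays run in duplicate for each RNA sample. The p-values below therefore measure only the spread between these arrays, which may be technical.

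Serotonin reaches hippocampus and cortex from axons of the raphe nuclei in the brainstem, and the cells that receive it are told apart by which receptors they carry. Receptors of the Htr1 family, and Htr5a, couple to Gi/o proteins, which lower cyclic AMP and open potassium channels. Htr2 receptors couple to Gq and phospholipase C, Htr4, Htr6 and Htr7 couple to Gs and adenylyl cyclase, and Htr3a is a subunit of a cation channel. In the forebrain Htr1a is best known from hippocampal pyramidal and granule neurons, Htr2a from deep-layer cortical pyramidal neurons, and Htr2c from the epithelium of the choroid plexus and from striatal neurons.

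The arrays were alike in general level, with medians from 6.35 to 6.44 (log2), and the 2 arrays of a group correlated at 0.990 to 0.996 across clusters. Of 8 measured markers of the dentate gyrus and CA fields, 6 were called higher in hippocampus than in cortex on control chow. Fibcd1, a CA1 marker, lay between 6.76 and 7.46 on the 8 hippocampal arrays and between 6.03 and 6.26 on the 8 cortical ones. The 10 measured cortical layer markers did not set the regions apart, with 1 called higher and 2 lower in hippocampus and a median difference of -0.01, and Rorb, Cux2 and Tbr1 had no cluster of their own named here. The cortex label thus rests on low hippocampal markers. Markers of striatal projection neurons (10 of 12 measured) stood apart on 1 array of every cortical group. Their mean was 7.91 on curcumin replicate 2 and 8.97 on control replicate 1 after 6 weeks, and 7.53 on curcumin replicate 2 and 8.35 on control replicate 2 after 12 weeks, against 6.89 to 6.99 on the other 4 cortical arrays and 6.74 to 6.92 in hippocampus. Markers of the choroid plexus (18 of 19 measured) averaged 7.34 on curcumin replicate 2 and 7.78 on control replicate 2 in hippocampus after 6 weeks, against 5.84 to 6.28 on the other 14 arrays. Markers of thalamus and habenula (7 measured) averaged 7.05 on the cortical control replicate 2 of 6 weeks, against 6.19 to 6.58 on the other 15 arrays, and that array enters each comparison with this control group. The raphe genes Tph2, the enzyme that starts serotonin synthesis in neurons, and Slc6a4, the serotonin transporter, were dim on all 16 arrays (4.87 to 5.09 and 5.41 to 5.72).

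**Figure D1:**
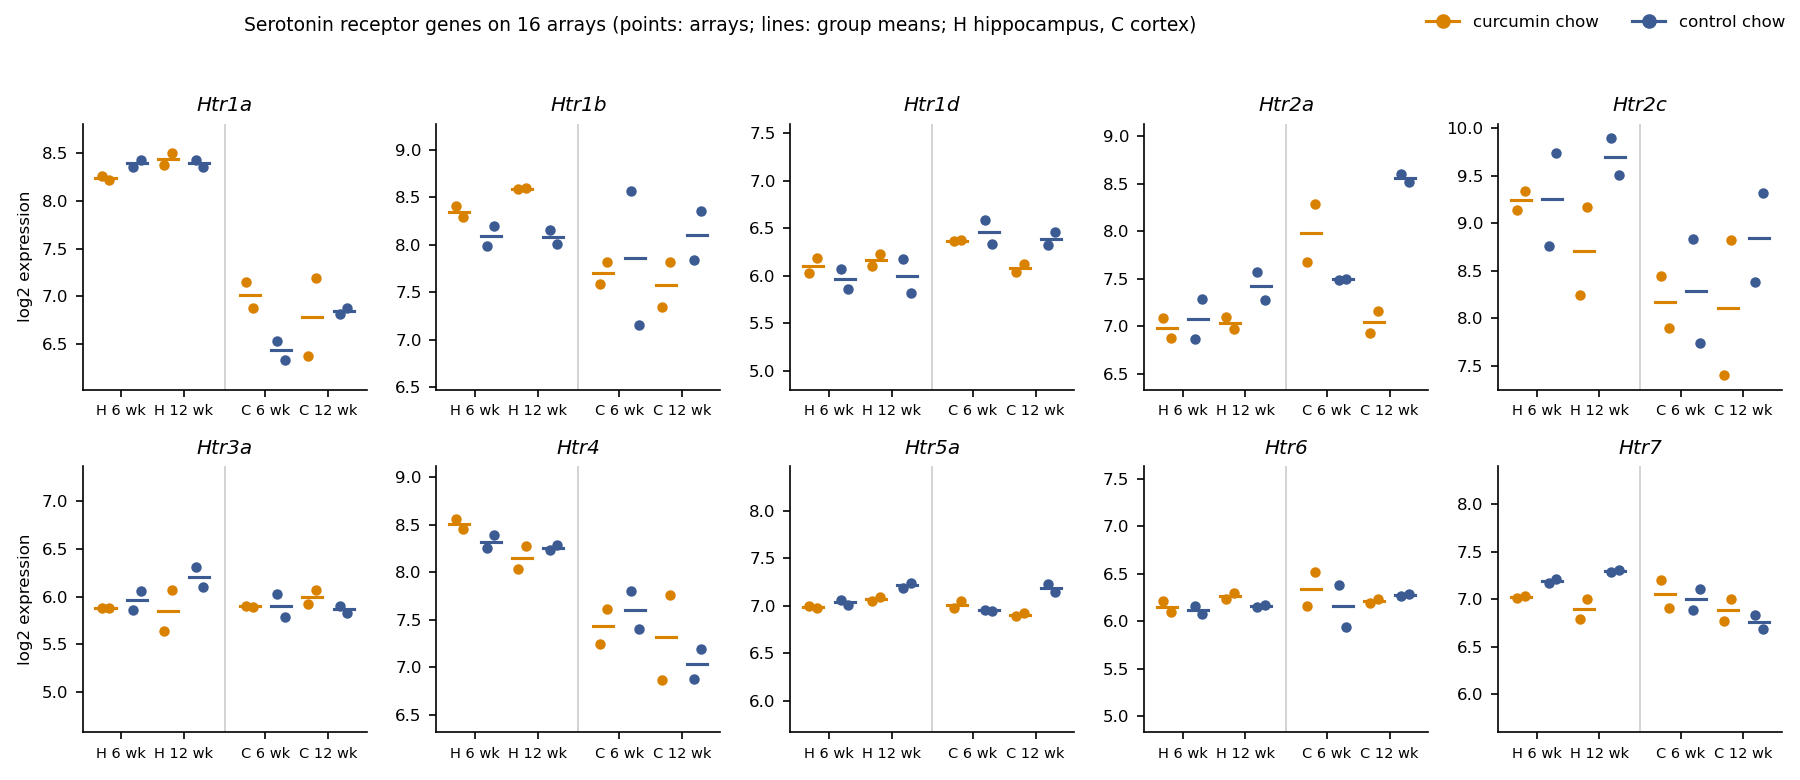
Deposited log2 expression of the 10 serotonin receptor genes on each of the 16 arrays (points) with the mean of each group of 2 (lines); curcumin chow stands left of control chow, hippocampus (H) left of cortex (C), and every panel spans the same number of log2 units. Htr2a in cortex after 12 weeks lies at 6.93 and 7.16 with curcumin and at 8.60 and 8.52 on control chow, Htr1a and Htr4 are higher in hippocampus than in cortex on every array, and Htr2c spreads widely within groups.

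Htr2a was the receptor gene with the largest curcumin difference. In cortex after 12 weeks, Htr2a (cluster 10781467) measured 6.93 and 7.16 on the curcumin arrays, against 8.60 and 8.52 on the control arrays. These were the 2 lowest and the 2 highest of all 8 cortical arrays. With curcumin Htr2a fell by 1.52 on the log2 scale, to 0.35 of the control level (SE 0.19, 95% interval -1.93 to -1.10, limma adjusted p = 0.00453 over all clusters, 2 arrays per group). The call was lost without control replicate 1 (difference -1.48, adjusted p = 0.0556), in a fit of the 8 cortical arrays alone (adjusted p = 0.0589) and in a fit of the 4 arrays alone (adjusted p = 0.121), and without the 4 cortical arrays with the higher striatal markers the difference was -1.67 (adjusted p = 0.066). Leaving out any 1 of the 4 arrays kept the difference between -1.63 and -1.40. With the striatal marker mean as a covariate it was -1.49 (adjusted p = 0.00815).

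At the shorter duration the cortical difference had the opposite sign. After 6 weeks Htr2a measured 7.67 and 8.28 with curcumin and 7.48 and 7.50 on control chow, groups that did not overlap. The difference was 0.49 (SE 0.19) and did not pass (limma adjusted p = 0.328). It was 0.17 without the cortical arrays with the higher striatal markers, which leaves 1 array per cortical group. In hippocampus Htr2a measured 7.09 and 6.88 with curcumin and 6.86 and 7.28 on control chow after 6 weeks. After 12 weeks it measured 7.10 and 6.97 with curcumin and 7.57 and 7.28 on control chow. Neither hippocampal difference passed (-0.09 and -0.39, both with SE 0.19, limma adjusted p = 1 and 0.986).

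Htr5a, a Gi/o-coupled receptor of neurons, was the other receptor gene called for curcumin, also in cortex after 12 weeks. Its cluster (10859883) measured 6.89 and 6.92 with curcumin and 7.22 and 7.14 on control chow, the 2 lowest and the 2 highest cortical values. Htr5a fell by 0.28 (SE 0.056, limma adjusted p = 0.0241), a change to 0.826 of the control level, which is small beside that of Htr2a. The call was lost without any 1 of the 4 arrays (adjusted p = 0.0648 to 0.206), without the dimmest 25% of clusters (0.0551) and with a variance trend (0.115). Htr5a had the narrowest range of the 10 genes, 0.35 log2 units over all 16 arrays. In hippocampus after 12 weeks it measured 7.05 and 7.10 with curcumin and 7.19 and 7.24 on control chow (difference -0.14, SE 0.056, adjusted p = 0.927). After 6 weeks its differences were -0.05 in hippocampus and 0.06 in cortex. Over the 8 cortical arrays Htr2a and Htr5a ran closely together (Pearson r 0.952), against 0.585 over the 8 hippocampal arrays. This is a description over arrays that share their groups, and both genes have their extremes in the same 12-week arrays.

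The stretch of 250 bases before the start of Htr5a is shown because Htr5a, of the 2 genes called for curcumin, is the one with an entry in the RefSeq promoter table (assembly GRCr8), where 6 of the 10 genes were found (Htr1b, Htr1d, Htr2c, Htr5a, Htr6 and Htr7). Capitals mark the letters GGGCGG, known as a GC box, and TGACG, the core of a cyclic AMP response element. They were searched on both strands, as was TATAAA, the TATA box, and no motif overlaps another there. The stretch lies at chr4:8188486-8188735 on the minus strand and is 58.4% G and C.
Htr5a: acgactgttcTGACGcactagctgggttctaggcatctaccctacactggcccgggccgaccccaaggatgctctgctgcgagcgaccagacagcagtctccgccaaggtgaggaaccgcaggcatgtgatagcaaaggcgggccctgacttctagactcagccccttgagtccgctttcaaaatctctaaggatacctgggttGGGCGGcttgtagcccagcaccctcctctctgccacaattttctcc
It holds 1 GC box, 1 cyclic AMP response element core and no TATA box by these letters. GGGCGG was present in 30.5% of all 33469 promoters of the same length, TGACG in 18.2% and TATAAA in 12.9%. Of the 6 receptor genes, 2 held GGGCGG, 2 held TGACG and none held TATAAA. The matches are descriptions of letters and not of binding sites.

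Htr2c, the receptor whose transcript is edited in the brain, had the widest range (7.41 to 9.89, cluster 10937302) and no called difference. In hippocampus after 12 weeks it measured 8.24 and 9.17 with curcumin and 9.89 and 9.50 on control chow, without overlap. The difference was -0.99, or 0.502 of the control level, but the SE was 0.54 and the adjusted p 0.999 (limma). The markers of the choroid plexus, whose epithelium carries Htr2c, were low on all 4 of those arrays, with means of 5.94 and 5.93 with curcumin and 5.84 and 5.87 on control chow. With their mean as a covariate the difference was -1.03, but this covariate could hardly move it, since the marker means of these arrays lay close together. In hippocampus after 6 weeks, where the markers differed between arrays, Htr2c measured 9.14 and 9.35 with curcumin and 8.76 and 9.74 on control chow. The higher value of each pair came from the array with the higher choroid plexus markers, and the groups overlapped fully (difference -0.01, SE 0.54).

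In cortex the Htr2c values spread widely within groups. After 6 weeks they were 8.45 and 7.90 with curcumin and 8.83 and 7.74 on control chow. After 12 weeks they were 7.41 and 8.82 with curcumin and 8.39 and 9.32 on control chow. The groups overlapped at both durations, and the differences were -0.12 and -0.74 (SE 0.54 each, limma adjusted p = 0.976 and 0.635). In 3 of the 4 cortical groups the array with the higher striatal markers had the higher Htr2c, and in the curcumin group after 6 weeks it had the lower one. Htr1b, Htr1d, Htr4 and Htr6, 4 of the 10 genes, were higher on that array in all 4 groups. The share of all clusters with this pattern was not counted, so the 4 genes cannot be called unusual. Some gaps were small: 0.02 for Htr1d with curcumin after 6 weeks, and 0.04 with curcumin and 0.03 on control chow for Htr6 after 12 weeks. The widest Htr1b pair was that of the control group after 6 weeks, 8.57 and 7.16, where the striatal means were 8.97 and 6.99. The part of striatal or choroid plexus tissue in these values was not tested. In pooled tissue, a different share of a cell type and a different amount of transcript per cell cannot be told apart.

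**Figure D2:**
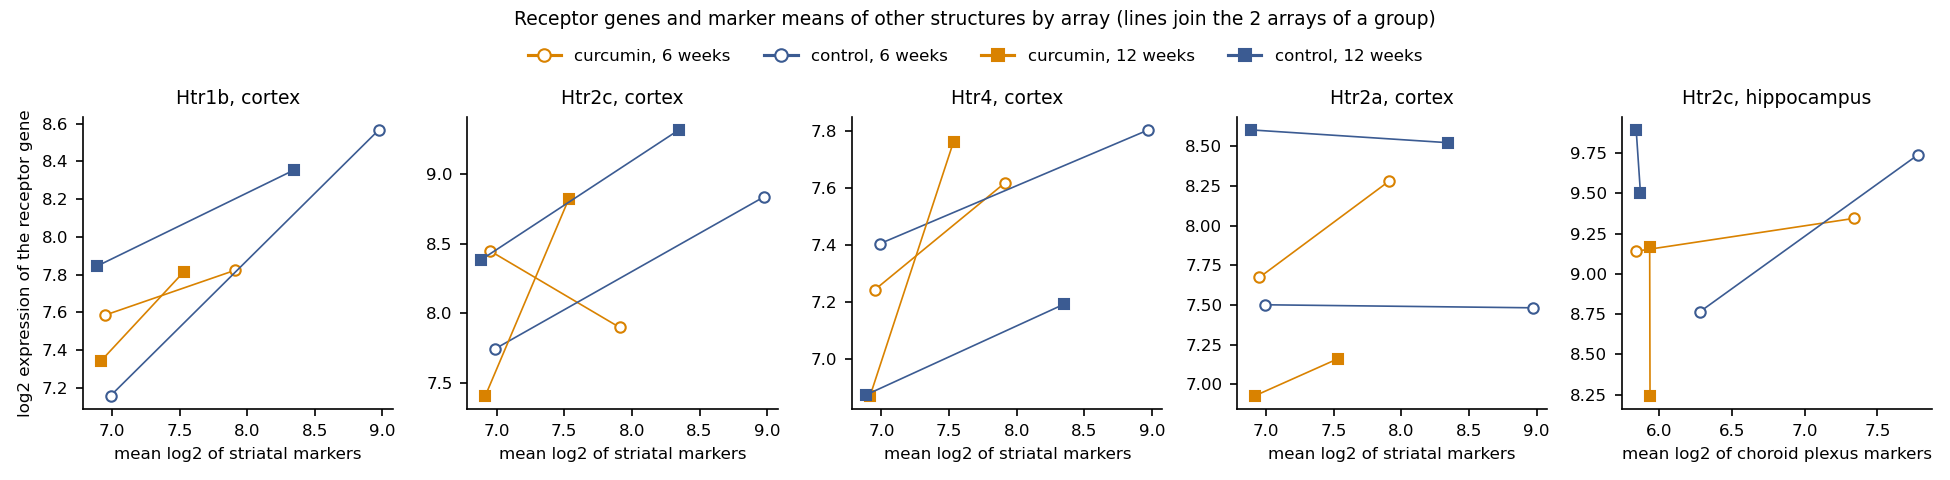
Log2 expression of Htr1b, Htr2c, Htr4 and Htr2a on the 8 cortical arrays against the mean log2 of 10 striatal markers, and of Htr2c on the 8 hippocampal arrays against the mean log2 of 18 choroid plexus markers; open circles are 6 weeks, filled squares 12 weeks, and lines join the 2 arrays of a group. Htr1b and Htr4, like Htr1d and Htr6 (not drawn), are higher on the striatal-marker-rich array of every cortical group, some by small gaps. Htr2a is higher on that array in both curcumin groups (8.28 against 7.67 after 6 weeks, 7.16 against 6.93 after 12 weeks). It is slightly lower on that array in both control groups (7.48 against 7.50 after 6 weeks, 8.52 against 8.60 after 12 weeks).

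Of the Gi/o-coupled Htr1 genes, none was called for curcumin. Htr1a, the inhibitory receptor of raphe and forebrain neurons, measured 7.15 and 6.88 with curcumin and 6.53 and 6.33 on control chow in cortex after 6 weeks. The groups did not overlap, and the difference of 0.59 (SE 0.20, 1.5-fold) did not pass (limma adjusted p = 0.256). Without the 4 cortical arrays with the higher striatal markers, which leaves 1 array per cortical group, the difference was 0.82. The control array left there, replicate 2, is the one with the high thalamus and habenula markers. After 12 weeks cortical Htr1a was 6.37 and 7.19 with curcumin and 6.81 and 6.87 on control chow, so that the curcumin arrays enclosed the control arrays (difference -0.06). In hippocampus it measured 8.26 and 8.23 with curcumin and 8.36 and 8.44 on control chow after 6 weeks, and the difference after 12 weeks was 0.05.

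Htr1b, which sits on axon terminals and limits transmitter release, measured 8.58 and 8.59 with curcumin and 8.16 and 8.01 on control chow in hippocampus after 12 weeks. The difference was 0.51, but with the SE of 0.34, pooled over all 8 groups, it did not pass (limma adjusted p = 0.999). With the striatal marker mean as a covariate it was 0.48 with an SE of 0.14 and still did not pass (adjusted p = 0.774). In cortex after 12 weeks Htr1b measured 7.34 and 7.82 with curcumin and 7.84 and 8.35 on control chow (difference -0.52, adjusted p = 0.579). Htr1d, a further terminal autoreceptor, measured 6.05 and 6.13 with curcumin and 6.32 and 6.46 on control chow in the same cortical groups. Its difference of -0.31 (SE 0.13) did not pass (adjusted p = 0.263). The other Htr1d differences lay between -0.09 and 0.17.

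Htr3a, the channel subunit carried by a class of GABA interneurons, had a called difference in no comparison. In hippocampus after 12 weeks it measured 5.64 and 6.06 with curcumin and 6.31 and 6.10 on control chow, where the groups nearly met (difference -0.35, SE 0.13, limma adjusted p = 0.92). Its other 3 curcumin differences lay between -0.08 and 0.13.

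The Gs-coupled genes were likewise not called for curcumin. Htr7, expressed in hippocampus and thalamus, measured 6.79 and 7.00 with curcumin and 7.29 and 7.31 on control chow in hippocampus after 12 weeks, without overlap. The difference of -0.40 (SE 0.12) had the smallest unadjusted p of the 10 genes there (0.00589), and did not pass (limma adjusted p = 0.766). In the same direction, hippocampal Htr7 after 6 weeks was 7.02 and 7.03 with curcumin and 7.17 and 7.22 on control chow (difference -0.17). Htr4 measured 8.56 and 8.45 with curcumin and 8.25 and 8.39 on control chow in hippocampus after 6 weeks (difference 0.18, SE 0.25). Its largest curcumin difference was 0.28 in cortex after 12 weeks, between 6.87 and 7.76 with curcumin and 6.87 and 7.19 on control chow. Htr6, a receptor found almost wholly in the central nervous system, had differences between -0.07 and 0.18.

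By comparison, curcumin left 0 of 10 receptor genes called in hippocampus after 6 weeks, against 0% of all clusters, with 0 genes at an unadjusted p under 0.05 (limma, 2.03% of all clusters). In cortex after 6 weeks 0 were called, against 0.106% of all clusters, with 2 at an unadjusted p under 0.05, Htr1a and Htr2a (12% of all clusters). In hippocampus after 12 weeks 0 were called, against 0.00366%, with 3 at an unadjusted p under 0.05, Htr3a, Htr5a and Htr7, all with negative differences (5.11% of all clusters). In cortex after 12 weeks 2 of 10 were called, both lower, against 3.24% of all clusters (449 higher and 436 lower), and Htr1d was the third gene at an unadjusted p under 0.05 (15.1% of all clusters). The median difference of the 10 genes was -0.03, 0.03, -0.12 and -0.17 in these 4 comparisons, in the same order, while that of all clusters lay between -0.002 and 0.002.

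A fold rule without a test, at least 1.5-fold or at most 0.66-fold between group means, held for 0 receptor genes in hippocampus after 6 weeks, against 0.121% of all clusters. It held for 1 in cortex after 6 weeks (Htr1a, against 1.25%), for 1 in hippocampus after 12 weeks (Htr2c, against 0.23%) and for 2 in cortex after 12 weeks (Htr2a and Htr2c, against 0.827%). The curcumin and control arrays did not overlap for 5 of the 10 genes in hippocampus after 6 weeks (35% of all clusters), for 3 in cortex after 6 weeks (36.3%), for 7 in hippocampus after 12 weeks (27.4%) and for 6 in cortex after 12 weeks (44.3%). With 2 arrays against 2, an exact permutation test of 1 gene cannot go below p = 0.333. Because the genes were chosen with earlier results known, the shares above do not test independently whether receptor genes stand out.

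**Figure D3:**
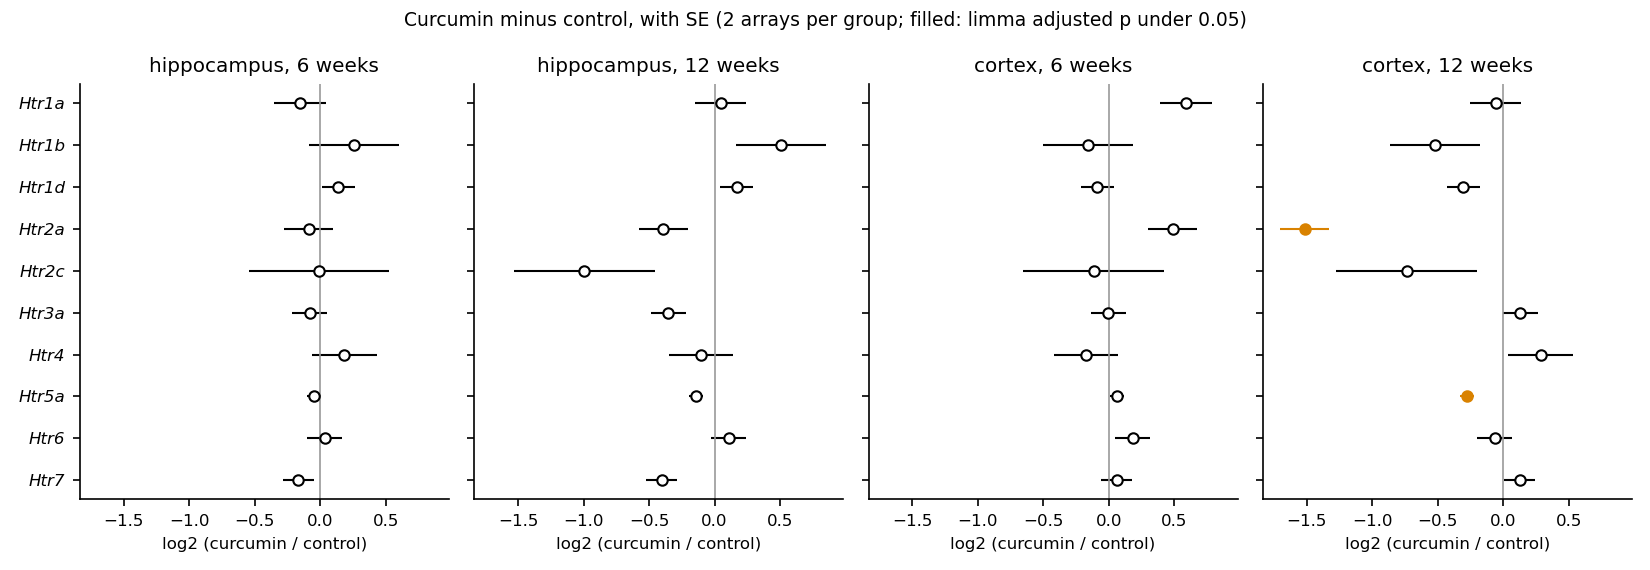
Curcumin minus control on the log2 scale for the 10 receptor genes in each region and at each duration, with the SE of the fit over all 16 arrays; filled orange points have a limma adjusted p under 0.05. Only Htr2a (-1.52) and Htr5a (-0.28) in cortex after 12 weeks are filled, and Htr2c and Htr1b carry the widest errors.

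Whether the curcumin difference itself changed with duration was tested in each region. In cortex that of Htr2a was lower after 12 than after 6 weeks by -2.00 (SE 0.27, limma adjusted p = 0.0137), the 1 receptor gene called of 10, against 1.47% of all clusters. Its 2 parts were -1.52 after 12 weeks and 0.49 after 6 weeks. The call was lost without control replicate 2 of 6 weeks (adjusted p = 0.058), without curcumin replicate 2 (0.057) or control replicate 1 (0.0875) of 12 weeks, in a fit of the cortical arrays alone (0.144) and without the cortical arrays with the higher striatal markers (difference -1.85, 0.0655), and the difference lay between -2.31 and -1.70 without any 1 array. For Htr5a the change with duration was -0.34 (SE 0.079, adjusted p = 0.0622), and it passed after quantile normalization over all arrays (-0.36, 0.0295). In hippocampus 0 receptor genes were called, against 0% of clusters, with 0 at an unadjusted p under 0.05 (3.43% of all clusters).

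Whether the curcumin difference changed between regions was tested at each duration. After 12 weeks 0 receptor genes were called, against 0.19% of all clusters, with 4 at an unadjusted p under 0.05 (10.6% of all clusters). Htr2a was the closest, with a hippocampal difference 1.13 above the cortical one (SE 0.27, limma adjusted p = 0.126), so that a cortical call beside an uncalled hippocampal value was not shown to be a difference between the regions. After 6 weeks 0 were called, against 0% of clusters, with Htr1a at an unadjusted p under 0.05 (-0.74, SE 0.28, adjusted p = 0.812), as were 5.48% of all clusters.

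Between the regions, receptor genes differed in both directions on control chow. In hippocampus against cortex 5 of 10 genes were called, 3 higher and 2 lower, against 4.21% of all clusters. Htr1a (cluster 10812879) measured 8.36, 8.44, 8.43 and 8.36 on the hippocampal control arrays and 6.53, 6.33, 6.81 and 6.87 on the cortical ones. It was 3.39-fold higher in hippocampus (1.76 log2, SE 0.14, limma adjusted p = 5.87e-05), and this call held in every alternative examined. Htr4 (cluster 10802151), which promotes transmitter release through cyclic AMP, measured 8.25, 8.39, 8.24 and 8.28 in hippocampus and 7.80, 7.40, 6.87 and 7.19 in cortex. It was 1.96-fold higher (0.97, SE 0.17, adjusted p = 0.00861), and did not pass without the 2 hippocampal arrays with the higher choroid plexus markers (0.94, adjusted p = 0.0801). On all 16 arrays the lowest hippocampal value of Htr1a, 8.23, exceeded the highest cortical one, 7.19, and that of Htr4, 8.03, exceeded 7.80.

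Htr7 was 1.29-fold higher in hippocampus (0.36, SE 0.084, adjusted p = 0.0327), from 7.17 to 7.31 on the hippocampal control arrays and from 6.69 to 7.11 on the cortical ones. That call was lost without any 1 of 7 of the 8 arrays (adjusted p = 0.0585 to 0.124) and without the cortical arrays with the higher striatal markers (0.27, 0.0785). Htr2a ran the other way, at 6.86, 7.28, 7.57 and 7.28 in hippocampus and 7.48, 7.50, 8.60 and 8.52 in cortex (-0.78, SE 0.13, adjusted p = 0.00699). The hippocampal and cortical values overlapped across durations, since the cortical control arrays of 6 weeks stood near the hippocampal ones of 12 weeks. Htr1d was lower in hippocampus (-0.44, SE 0.089, adjusted p = 0.0161), between 5.82 and 6.17 there and between 6.32 and 6.59 in cortex, and that call was lost in 7 of the alternatives, among them without the cortical arrays with the higher striatal markers (-0.34, 0.163).

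For Htr1b the regional result depended on those 4 cortical arrays. It averaged 8.09 in hippocampus and 7.98 in cortex on control chow, a difference of 0.11 (SE 0.24, limma adjusted p = 0.92). Without them, which leaves 1 array per cortical group, the difference was 0.59. With the striatal marker mean as a covariate it was 0.63 (adjusted p = 0.0172). Both fits keep the cortical control replicate 2 of 6 weeks, the array with the high thalamus and habenula markers. That array had the lowest Htr1b of all 16 arrays (7.16). For Htr2c the difference was 0.91 (adjusted p = 0.276). It was 1.41 without the 4 cortical arrays with the higher striatal markers. Without the 2 hippocampal arrays with the higher choroid plexus markers it was 0.66. Htr3a, Htr5a and Htr6 differed by 0.20, 0.06 and -0.08 between the regions, and none of them passed.

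**Figure D4:**
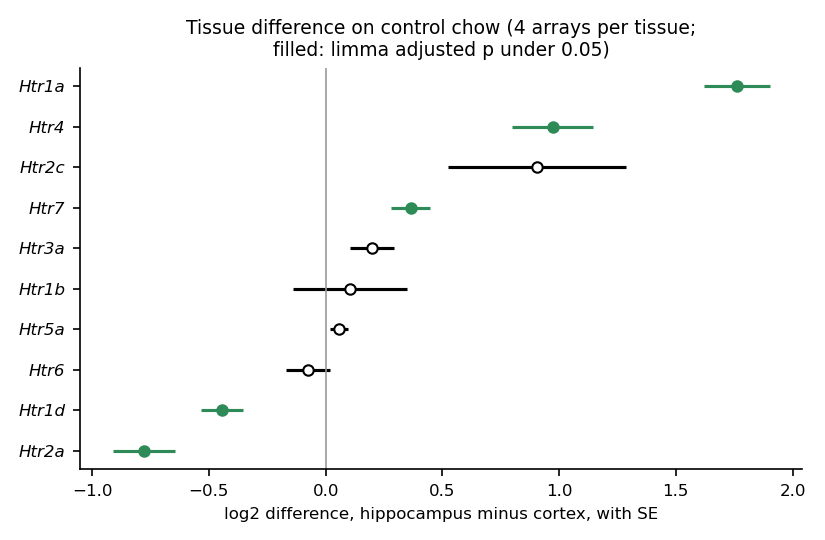
Hippocampus minus cortex on control chow (log2) for the 10 receptor genes, from lowest to highest upwards, with the SE of the fit and 4 arrays per region; filled green points have a limma adjusted p under 0.05. Htr2a (-0.78) and Htr1d (-0.44) lie to the left, and Htr7 (0.36), Htr4 (0.97) and Htr1a (1.76) to the right.

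The 8 group means of each gene were also put in order. For Htr1a the 4 hippocampal groups came first, from 8.44 with curcumin after 12 weeks down to 8.24 with curcumin after 6 weeks, then the cortical groups from 7.01 to 6.43. Neighbours overlapped within the upper 3 and the lowest 3 groups, and the regions did not overlap. For Htr4 the hippocampal groups lay between 8.51 and 8.15 and the cortical groups between 7.60 and 7.03, all 4 of which overlapped with their neighbours. For Htr2a the cortical control group after 12 weeks stood first (8.56), then the cortical curcumin and control groups after 6 weeks (7.98 and 7.49), and from the third to the last place (6.98, hippocampus with curcumin after 6 weeks) every neighbour overlapped. The cortical curcumin group after 12 weeks (7.05) fell among the hippocampal groups. For Htr2c every group overlapped with its neighbours, from 9.70 in hippocampus on control chow after 12 weeks to 8.11 in cortex with curcumin after 12 weeks.

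Among control rats, 12 weeks were also set against 6 weeks. These control arrays are the same as in the curcumin comparisons, so the values are not independent of those above, and the duration of feeding, the age of the rats and any processing batch cannot be told apart. In cortex, striatal markers were high on control replicate 1 of 6 weeks and replicate 2 of 12 weeks. Thalamus and habenula markers were high on control replicate 2 of 6 weeks. The part of such tissue in these values was not tested. In cortex 2 of 10 receptor genes were called, both higher after 12 weeks, against 8.85% of all clusters. Htr2a measured 8.60 and 8.52 after 12 weeks and 7.48 and 7.50 after 6 weeks (1.07, SE 0.19, limma adjusted p = 0.00767). This call was lost without control replicate 1 of 12 weeks (0.0705) or control replicate 2 of 6 weeks (0.053). In curcumin rats cortical Htr2a averaged 7.05 after 12 weeks and 7.98 after 6 weeks, the opposite order.

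Htr5a in cortex measured 7.22 and 7.14 after 12 weeks and 6.96 and 6.94 after 6 weeks on control chow (0.23, SE 0.056, adjusted p = 0.026), and lost the call without any 1 of the 4 arrays (0.0572 to 0.194). Htr1b did not pass (0.24, limma adjusted p = 0.766). Without control replicate 1 of 6 weeks, the array with the highest striatal markers, the difference was 0.94. That leaves control replicate 2 as the only control array of 6 weeks, the one with the high thalamus and habenula markers. In hippocampus 0 receptor genes were called, against 4.27% of all clusters, with Htr5a at an unadjusted p under 0.05 (0.18, SE 0.056, adjusted p = 0.105), as were 17.5% of all clusters.

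The 4 other receptor genes with a cluster, Htr1f, Htr2b, Htr3b and Htr5b, had no called curcumin difference. Htr5b, a close relative of Htr5a that is active in rodents, was higher in hippocampus than in cortex on control chow by 1.13 (SE 0.10, limma adjusted p = 0.000141), with control values from 6.88 to 7.41 and from 6.07 to 6.12. Htr5a did not pass in the same comparison (0.06), and the 2 genes were not tested against each other. In hippocampus after 12 weeks Htr5b measured 7.66 and 7.38 with curcumin and 7.29 and 6.88 on control chow (0.44, SE 0.15, adjusted p = 0.852). Htr1f, an inhibitory receptor, had its largest curcumin difference there too (-0.38, SE 0.24), and Htr2b and Htr3b were dim, with means of 5.07 and 5.23 over all arrays.

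The genes that make, move and break down serotonin and those that carry the receptors' signal were examined as lists, 71 measured genes in all. In hippocampus at both durations and in cortex after 6 weeks none of the 71 was called for curcumin, against at most 0.106% of all clusters, and in cortex after 12 weeks 5 were called higher and 3 lower, against 3.24% of all clusters. Of 14 genes of synthesis, transport and breakdown, 2 were lower there and none higher (list median -0.10, all clusters 0.0006). Maob, a monoamine oxidase of astrocytes and serotonergic neurons, measured 8.54 and 8.63 with curcumin and 9.17 and 9.08 on control chow (-0.54, SE 0.073, limma adjusted p = 0.00575). Maoa, the oxidase that prefers serotonin, measured 8.25 and 8.31 with curcumin and 8.84 and 8.81 on control chow (-0.55, SE 0.12, adjusted p = 0.0313). Neither gene's groups overlapped. The Maob call was lost without 1 of the 4 arrays (adjusted p up to 0.0658), and the Maoa call without any 1 of them (0.116 to 0.193). For Maob the hippocampal curcumin difference after 12 weeks stood above the cortical one by 0.67 (SE 0.10, adjusted p = 0.0405), a call lost without any 1 of 7 of those 8 arrays (adjusted p up to 0.166).

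On the receptor side, the Gq arm used by Htr2a and Htr2c had 0 of 14 genes called for curcumin in cortex after 12 weeks (median 0.11), and Gna11, the nearest, differed by 0.19 (limma adjusted p = 0.171). Of 11 genes of the Gi/o arm, Gnao1, the main Go subunit of brain, rose by 0.42 (SE 0.090, adjusted p = 0.0312). Of 14 genes of the Gs arm, Adcy1, a calcium-stimulated adenylyl cyclase of neurons, rose by 0.60 (SE 0.13, adjusted p = 0.0273). It measured 10.19 and 9.95 with curcumin and 9.58 and 9.35 on control chow. The calls of Gnao1 and Adcy1 were lost without any 1 of the 4 arrays (adjusted p up to 0.253 and 0.166).

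Of 18 receptor partners and regulators, 3 rose and 1 fell in the same comparison (median 0.18). Cav1, a caveolar scaffold that binds Htr2a and is also a gene of endothelium, fell by 0.80 (SE 0.15, adjusted p = 0.0173), at 6.77 and 7.27 with curcumin and 7.92 and 7.71 on control chow. Cav1 was the only one of 7 measured endothelial and smooth muscle genes called there, and 5 of the 7 had negative differences (median -0.18). The mean of the 7 was 7.65 and 8.09 with curcumin and 8.15 and 7.95 on control chow. Deaf1, a regulator of the Htr1a promoter, rose by 0.36 (SE 0.071, adjusted p = 0.021). Adar, an enzyme that edits Htr2c transcripts, rose by 0.33 (SE 0.068, adjusted p = 0.0267), and Grk3, a kinase that desensitizes receptors, rose by 0.40 (SE 0.092, adjusted p = 0.0409). Each of these 4 calls was lost when single arrays were left out (adjusted p up to 0.16 for Cav1 and Deaf1, 0.23 for Adar and 0.252 for Grk3). GABA interneuron markers had 0 of 15 genes called for curcumin in cortex after 12 weeks, and cortical layer markers 0 of 10, against 3.24% of all clusters. Striatal markers also had 0 of 10 called, but all 10 differences were negative (median -0.43). All 10 were negative in cortex after 6 weeks as well (median -0.52). The part of such tissue in the curcumin differences was not tested.

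The genes whose log2 values ran closest to a receptor over the 16 arrays were listed as a description among 15096 other named clusters. For Htr2a they were Gabra3 (Pearson r 0.871), Cbln2 (0.86), Ctps2 (0.86), Fgf14 (0.853) and Nrsn1 (0.846). For Htr2c they were Tmem45b (0.941), Wnt7b (0.862), Car12 (0.854), Pfkl (0.845) and Rhbdl3 (0.828). Htr1a was followed most closely by Cacng8 (0.974) and Trpc5 (0.971), and Htr4 by Sytl5 (0.964) and the granule cell gene Prox1 (0.947). The arrays share 2 regions and 8 groups, and what the values rest on was not tested. Htr1a and Htr4 correlated at 0.861 over all 16 arrays but at -0.512 over the 8 hippocampal and 0.218 over the 8 cortical arrays. The closest for the others were Kcnab1 for Htr1b (0.911), Adamts19 for Htr1d (0.844), Hgfac for Htr3a (0.848), Cyp51 for Htr5a (0.928), Nkiras1 for Htr6 (0.814) and Plagl1 for Htr7 (0.892).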

How the data were processed

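RNA from pooled rat hippocampus or cortex had been hybridised to 16 Affymetrix arrays. The authors deposited log2 values per cluster, and the submitters' processing notes name Affymetrix Expression Console and RMA. Command Console and Gene Spring are named in the methods as well, and no source used here gives their versions. Cluster names match a rat gene array but the methods speak of an exon array, and this was not settled. Probe-level signals were not analysed here, so signal over background was not examined, and the number of arrays limits the precision.

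Symbols came from the clusters' annotation (15097 clusters had 1 symbol, 323 several and 11922 none). One limma fit (3.58.1, R 4.3.3) took a mean for each of the 8 groups and used lmFit, contrasts.fit and eBayes, with 8 residual degrees of freedom and 3.12 prior ones. In each of 11 comparisons the Benjamini-Hochberg adjustment ran over all 27342 clusters, and a call needed an adjusted p under 0.05. The code was tested on simulated data. Figures were drawn with matplotlib.

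The receptor genes and all gene lists were chosen with earlier results of these data known. The text names every receptor gene with a cluster, up to 4 called genes per list and curcumin comparison (or 1 gene that did not pass), the first markers of a list, and the closest genes by correlation, 5 each for Htr2a and Htr2c. Fibcd1, and Maob in the comparison of regions, were named after their values were seen.

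Alternatives were removal of the dimmest 25% of clusters, quantile normalization of all arrays or per region, single arrays left out, the arrays of a region or comparison alone, a robust variance trend, weighted arrays, a replicate block, a random block (statmod 1.5.0), the fold rule and a threshold of 0.10. Omission of arrays rich in striatal or choroid plexus markers, and these markers as covariates, were chosen after seeing the data.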

Additional observations from a re-analysis of the deposited data

Results flagged for a closer look

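The curcumin difference of Htr2a in cortex was not the same at both durations, by a test of the difference itself: the value after 12 weeks minus that after 6 weeks was -2.00 log2 units, with an SE of 0.27 (limma adjusted p = 0.0137). With curcumin the arrays measured 6.93 and 7.16 after 12 weeks and 7.67 and 8.28 after 6 weeks, and on control chow 8.60 and 8.52 after 12 weeks and 7.48 and 7.50 after 6 weeks. The call was lost without control replicate 2 of 6 weeks (adjusted p = 0.058), curcumin replicate 2 of 12 weeks (0.057) or control replicate 1 of 12 weeks (0.0875), on the 8 cortical arrays alone (0.144) and without the cortical arrays with the higher striatal markers (0.0655). Groups of 2 arrays are too small to be examined for single outlying arrays.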

How the results depend on the processing

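Over 204 counts of receptor genes called under an alternative, 172 were within 1.5 times the main count. Most of these 172 set a count of 0 against a main count of 0. Of 2000 values of single receptor genes, 1940 kept their side of the threshold, 49 lost and 11 gained a call. Most of the 1940 were uncalled in the main fit and stayed uncalled. The 49 losses could come only from values called in the main fit, which were few. These totals therefore do not measure how firmly the calls held. Among called values 0 changed sign, whereas 105 values uncalled in both fits did. For curcumin in cortex after 12 weeks (2 called), the count was 1 without the dimmest 25% of clusters and with a variance trend, 0 on the region's 8 arrays, on just the 4 compared arrays and without the cortical arrays with the higher striatal markers, and 0 to 1 with each array left out. For cortex after 6 weeks (0 called) it was 1 without those striatal-marker-rich arrays and 1 by the fold rule, and for hippocampus after 12 weeks (0 called) 1 by the fold rule. For hippocampus against cortex (5 called) it was 2 without the 2 hippocampal arrays with the higher choroid plexus markers, 3 with their mean as a covariate, and 3 to 5 with each array left out. For 12 against 6 weeks in control cortex (2 called) it was 1 without the dimmest 25%, on the 8 arrays and with a variance trend, 0 on the 4 arrays, and 0 to 2 with each array left out. For the change of the cortical curcumin difference with duration (1 called) it was 2 with either quantile normalization and at a threshold of 0.10, 0 on the 8 arrays, and 0 to 1 with each array left out, and for the difference between regions after 6 weeks (0 called) it was 1 without the striatal-marker-rich arrays. Fits on fewer arrays have fewer residual degrees of freedom, and otherwise the cause of these changes was not tested.

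The labels give the groups the same replicate numbers but do not say that a number links samples. Both regions came from the same rats, but no source used here ties a number to the same rats in both. Deviations of same-numbered curcumin and control arrays correlated at 0.04, -0.058, -0.429 and 0.011 across clusters, and those of same-numbered hippocampal and cortical arrays at -0.154, 0.124, 0.148 and 0.162. The value of -0.429 was that of hippocampus after 12 weeks. A check by number cannot show whether arrays of unlike number are linked. The main fit treated the arrays as sharing only a number, and a link between arrays of unlike number was not tested. With the replicate block, the count of receptor genes called stayed at 2 for curcumin in cortex after 12 weeks, at 5 between the regions, at 2 for duration in control cortex and at 1 for the change with duration in cortex, and at 0 in the other comparisons, and a random block over same-numbered arrays of both regions gave the same counts. No receptor gene has more than 1 cluster, so averaging clusters changed nothing. With 2 arrays per group, a difference as large as that of Htr2c (SE 0.54) could not be told from the spread between arrays.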
